A study of Mus musculus with 2 samples.

Results

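The replication-dependent histone genes were described here in chromatin accessibility maps of the adult mouse cortex. They were taken as every protein-coding gene of GENCODE M21, on mm10 chromosomes 1 to 19, whose symbol begins with Hist1h, Hist2h, Hist3h or Hist4h. This gave 67 of 20807 protein-coding genes: 6 genes of the linker histone H1, 18 of H2A, 18 of H2B, 12 of H3 and 13 of H4. By locus, 54 lie in Hist1 on chromosome 13, 10 in Hist2 on chromosome 3, 2 in Hist3 on chromosome 11 and 1 in Hist4 on chromosome 6. The rule uses gene symbols and no measured value.

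The maps are DNase-seq, in which nuclei are lightly cut with DNase I and the cut ends are sequenced, so that cuts pile up where DNA is open. Left cerebral cortex was taken from 2 female B6CASTF1/J mice, the F1 hybrid of C57BL/6J and CAST/EiJ, at 2 months of age. There is 1 library for each animal, replicate 1 from female 5 and replicate 2 from female 6, and both carry the same donor entry in the labels. They form 1 group with no treatment and no second genotype, so there was nothing to compare between groups and no test was made.

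Replication-dependent histone genes supply the histones that package newly copied DNA, and they are transcribed mainly in S phase. They are short, have no introns in their classical form, sit in clusters that gather in the histone locus body, and end in a stem-loop instead of a poly(A) tail. H2A, H2B, H3 and H4 form the nucleosome core, and H1 binds the linker DNA between nucleosomes. Most cells of the adult cortex are neurons and glia that have left the cell cycle, and they maintain their chromatin largely with replication-independent histones such as H3.3 and H2A.Z.

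The larger list of peaks held 125311 peaks in replicate 1 and 116563 in replicate 2 on chromosomes 1 to 19. Signal below, always in the authors' unit, is the height of a peak's cut density. Low values, those under 2, were multiples of a constant within a tolerance of 0.05 of it. If that constant is 1 cut scaled to 1 M, depth was 206.4 M cuts for replicate 1, nearly the same as the 208.2 M of replicate 2. The labelled tissue was checked on marker promoters, where 5 of 6 excitatory neuron genes, 3 of 4 inhibitory neuron genes, 3 of 4 astrocyte genes and 2 of 3 oligodendrocyte genes had a peak in both libraries. Markers of microglia (0 of 3), endothelium (0 of 3) and other tissues (0 of 4) had none in both libraries at their outermost 5′ ends; Cldn5 of endothelium had a peak in replicate 2 only (0.49).

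Most histone promoters were open in this largely non-dividing tissue. A peak of each library reached within 500 bp of the annotated 5′ end at 58 of the 67 genes (86.6%), where 60.1% of all protein-coding genes had such a shared peak. None of the 67 had a peak in 1 library only, which was rare over the genome too (737 of 20807 genes). No peak in either library was found at 9 of the 67. With the smaller, stricter peak list the count was 57 of 67 (85.1%) beside 56.1% of all genes. Measured from the start codon it was 59 of 67 (88.1%) beside 46.7%. In tissue taken as a whole, few cells with a very open promoter and many cells with a slightly open promoter cannot be told apart.

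The open histone promoters had lower peaks than most open promoters. The median signal of the 58 genes was 2.00 in replicate 1 and 1.96 in replicate 2, and the median of their means was 2.05. Over the 12498 protein-coding genes with a peak of both libraries these were 2.86, 3.11 and 3.0, and 13 of the 58 histone genes lay above 3.0. Base composition differed too: the histone windows held a median of 62 CpG dinucleotides in 1001 bp, and all genes a median of 43. Of 6967 other genes with 44 to 82 CpG, the middle range of the histone genes, 6575 (94.4%) were open in both libraries, at a median of 3.35. Of the 56 histone genes in that CpG range 50 (89.3%) were open in both libraries, at a median of 2.05. At any CpG count, 59 histone genes have windows that are not near-exact copies of other sequence (at least 10% unique words, explained below). Of these, 55 (93.2%) were open. The histone genes were thus below other CpG-rich genes in signal. Within the same CpG range the shares that were open, 89.3% and 94.4%, lay a few points apart and were not tested.

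**Figure D1:**
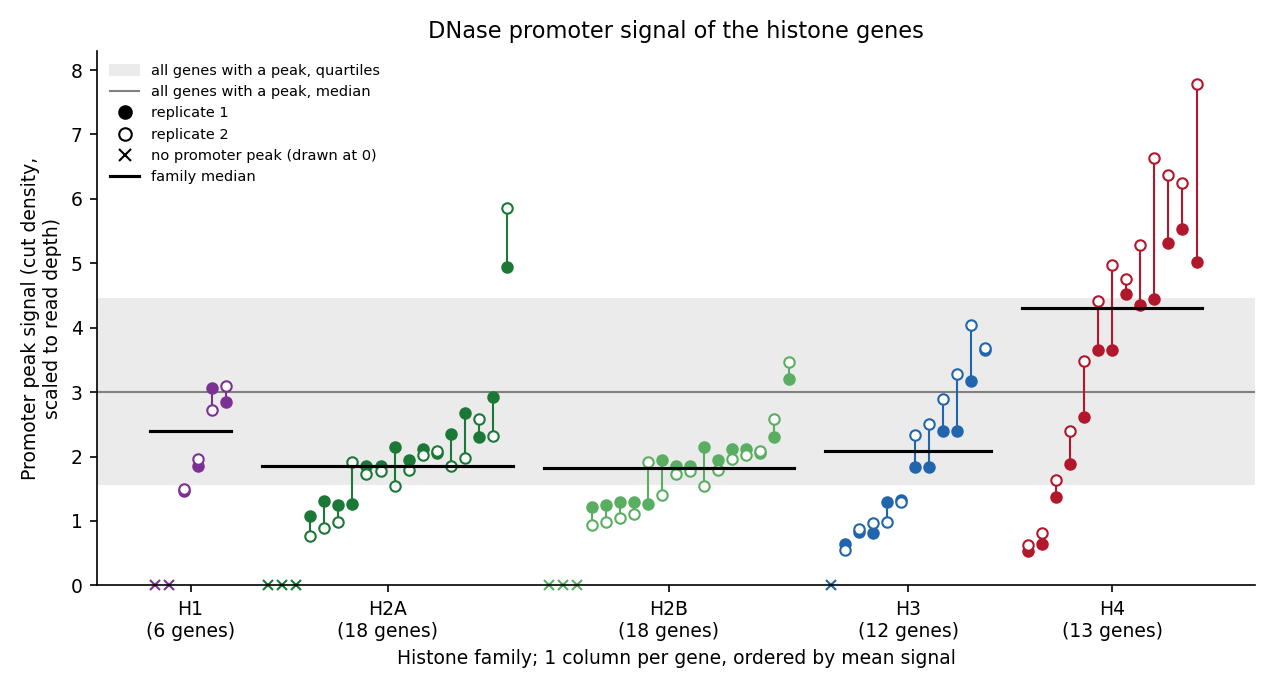
Promoter peak signal (vertical axis, cut density scaled to read depth by the authors) of each histone gene, in columns ordered by mean signal within each family; filled points are replicate 1, open points replicate 2, crosses genes with no promoter peak, black bars family medians, and the grey line and band the median and quartiles of all protein-coding genes with a shared peak. H4 is the family with the highest median, 4.31, and holds the highest gene at 5.02 and 7.78.

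The linker histone genes differed between the somatic and the testis member. Hist1h1c had a signal of 3.06 in replicate 1 and 2.72 in replicate 2, and Hist1h1e 2.84 and 3.10. Hist1h1a gave 1.86 and 1.96, and Hist1h1b 1.47 and 1.5. The libraries differed less within each of these genes than the upper pair differed from the lower pair. Hist1h1d had no peak at its annotated 5′ end, which lies 1828 bp before its start codon; at the start codon its signal was 1.92 and 1.59. Hist1h1t, the testis linker histone gene made in spermatocytes, had no peak in either library at any of these starts.

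H1 promoters are known to share an upstream A-rich element, the H1 box (AAACACA), and CCAAT, the site known to be bound by the trimeric factor NF-Y. The 200 bp before the 5′ ends of the highest H1 gene and of the closed testis gene are shown because both elements are present in each. They are from mm10 and read along the gene, chr13:23738608-23738807 (+ strand) for Hist1h1c and chr13:23695614-23695813 (+ strand) for Hist1h1t; capitals mark the H1 box, the CCAAT site and, in the testis gene, the GC box (GGGCGG).
Hist1h1c: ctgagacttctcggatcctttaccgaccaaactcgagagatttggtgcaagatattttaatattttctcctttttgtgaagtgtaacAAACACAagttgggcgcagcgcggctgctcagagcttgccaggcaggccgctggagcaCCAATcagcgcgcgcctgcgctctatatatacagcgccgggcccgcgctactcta
Hist1h1t: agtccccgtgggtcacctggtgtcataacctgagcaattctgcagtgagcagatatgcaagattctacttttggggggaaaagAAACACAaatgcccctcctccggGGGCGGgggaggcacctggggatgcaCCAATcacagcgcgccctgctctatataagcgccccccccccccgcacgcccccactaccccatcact
Counting from the first base shown, Hist1h1c had footprints, short protected stretches inside open DNA, at bases 100 to 111, 159 to 171 and 175 to 194 in replicate 1. Replicate 2 had them at 98 to 104, 165 to 173 and 181 to 204, so each overlapped one of the other animal. None of these footprints overlapped the H1 box or the CCAAT site. Neither library had a footprint within the Hist1h1t sequence. The presence of the same short elements in both did not go with the same accessibility.

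The core histone genes H2A and H2B lie mostly head to head. Of 13 divergent pairs, in which neighbours on opposite strands start within 1000 bp and point apart, 12 joined an H2A with an H2B gene and 1 joined Hist1h2bh with Hist1h3f. Their 5′ ends were 175 to 659 bp apart (median 267), and 10 pairs had a peak between the starts in both libraries. Because neighbours share such a peak, the 58 open genes rested on 49 distinct strongest peaks in each library. The 20 open genes of pairs had a median signal of 1.83, and the 38 open genes outside pairs 2.25.

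The pair with the highest signal was Hist1h2bf/Hist1h2ad, with 2.30 in replicate 1 and 2.59 in replicate 2. Hist1h2an/Hist1h2bp followed with 2.05 and 2.08, and Hist2h2ac/Hist2h2be with 2.11 and 2.02. Hist1h2ag/Hist1h2bj gave 1.94 and 1.79, and Hist1h2ae/Hist1h2bg gave 2.15 and 1.55. The libraries of Hist1h2ae/Hist1h2bg lay so far apart that their range took in all values of the 3 pairs before it, so the order among these is loose. The lowest open pair, Hist1h2ak/Hist1h2bn, had 1.24 and 0.98 and did not overlap them.

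The sequence between the starts is shown for the pair with the highest signal and for 1 of the 3 pairs without a peak, a duplicated one in whose promoter windows no 36-base word is unique, because the elements are much the same in both. They are the + strand of mm10, chr13:23574197-23574380 for Hist1h2bf-Hist1h2ad and chr13:21810198-21810464 for Hist1h2bq-Hist1h2ao, and capitals mark CCAAT or its reverse complement.
Hist1h2bf-Hist1h2ad: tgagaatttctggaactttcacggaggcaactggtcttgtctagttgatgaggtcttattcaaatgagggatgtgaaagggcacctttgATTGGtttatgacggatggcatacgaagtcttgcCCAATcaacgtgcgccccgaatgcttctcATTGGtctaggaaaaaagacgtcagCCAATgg
Hist1h2bq-Hist1h2ao: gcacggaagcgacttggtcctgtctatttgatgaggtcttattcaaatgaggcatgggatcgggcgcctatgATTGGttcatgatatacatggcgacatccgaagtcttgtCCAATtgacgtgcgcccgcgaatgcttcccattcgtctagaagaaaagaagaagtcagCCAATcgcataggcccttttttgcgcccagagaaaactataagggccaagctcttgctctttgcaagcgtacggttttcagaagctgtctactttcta
The open pair holds 4 CCAAT matches and the other 3. In the open pair, replicate 1 had footprints at bases 65 to 73, 96 to 102 and 128 to 143, and replicate 2 at 82 to 88 and 130 to 138. The stretch from base 130 to 138, just behind the first CCAAT on this strand, was thus protected in both animals. The 235 bp between the starts of another pair, Hist1h2ap/Hist1h2br, are contained in the second sequence as an exact inverted copy.

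Outside the pairs, the H2A gene Hist2h2aa2 stood apart from its family with 4.94 in replicate 1 and 5.86 in replicate 2. Its near-copy Hist2h2aa1 gave 2.93 and 2.32. The 2 windows share 66.1% of their 36-base words, that is, of all stretches of 36 bases in them, taken here as a stand-in for reads. In Hist2h2aa2 a footprint of 50 bp in replicate 1 and 52 bp in replicate 2 began 54 bp before the 5′ end, the widest of all 67 windows. Hist2h2bb, an H2B gene, had 3.21 and 3.46. In the small Hist3 locus, Hist3h2a had 2.67 and 1.98 and Hist3h2ba 2.11 and 1.96. Hist2h2ab gave 2.35 and 1.85. The lowest open H2A gene was Hist1h2af with 1.08 and 0.773. Among the open genes the family medians were 1.86 for H2A (15 of 18 open) and 1.82 for H2B (15 of 18 open).

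H3 genes spread widely around a median of 2.08, with 11 of 12 open. Hist1h3e gave 3.66 in replicate 1 and 3.68 in replicate 2, and Hist1h3b gave 3.18 and 4.04. These were above all other H3 genes in mean signal. Hist2h3b gave 1.83 and 2.5. At the low end, Hist1h3i gave 0.809 and 0.975 and Hist1h3d 0.828 and 0.879, and Hist2h3c2 gave 0.639 and 0.543. The low H3 promoters did not overlap the high ones in either library. The 200 bp before Hist1h3e (mm10 chr13:23562370-23562569, − strand, read along the gene) are shown as the highest H3 promoter, with CCAAT or its reverse complement in capitals.
Hist1h3e: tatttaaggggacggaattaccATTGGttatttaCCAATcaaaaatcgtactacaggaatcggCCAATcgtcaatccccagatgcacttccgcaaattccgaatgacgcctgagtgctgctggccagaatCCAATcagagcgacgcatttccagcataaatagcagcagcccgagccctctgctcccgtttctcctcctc
The CCAAT nearest to the gene lay under a footprint in both libraries, at bases 116 to 137 in replicate 1 and 116 to 138 in replicate 2. The CCAAT in the middle was also overlapped in both, at bases 64 to 70 and 57 to 66.

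H4 was the family with the most open promoters. All 13 H4 genes were open in both libraries, the median signal was 4.31, the means ran from 0.574 to 6.40, and 9 of the 13 lay above the median of all open promoters. Hist1h4c had 5.02 in replicate 1 and 7.78 in replicate 2, the highest mean of all 67 genes but also the widest gap between animals. Hist1h4i gave 5.53 and 6.25, Hist1h4a 5.32 and 6.37, and Hist4h4 4.45 and 6.63. Hist1h4d gave 4.35 and 5.29, and Hist2h4 4.52 and 4.76. Hist1h4h gave 3.65 and 4.97, and Hist1h4k 3.65 and 4.41. Neighbours in this order overlap between the libraries, so only the ends of the order are separate.

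At the low end of H4 stood Hist1h4m with 0.635 and 0.812 and Hist1h4n with 0.528 and 0.620. These 2 windows share 95.8% of their 36-base words with each other, and 4.24% and 3.31% of their words occur once in the genome. Every one of the 13 H4 genes was higher in replicate 2, with a median log2 ratio of replicate 2 over replicate 1 of 0.28. Among 6731 other genes with a mean signal between 2.14 and 5.54, the quartiles of H4, 77.7% were higher in replicate 2 with a median of 0.19. Of the H3 genes 8 of 11 were higher in replicate 2 (median 0.27), and of other genes within the H3 quartiles 49.0% (median -0.01). Of the H2A genes 4 of 15 were higher (median -0.12), beside 46.9% of other genes of like signal (median -0.02), and of the H2B genes 4 of 15 (median -0.11), beside 43.9% (median -0.04). The H2A and H2B counts are not separate, since genes of a divergent pair share a peak. Over all genes the median was 0.14, and 90% of the single genes lay from -0.39 to 0.51. Medians of several genes vary less than single genes, so this range cannot judge the family medians.

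H4 promoters carried a common sequence element, which lay under footprints at some of the genes. H4 genes are known to be switched on in S phase through a conserved proximal site that holds GGTCCG and is bound by HINFP. The hexamer was searched for after the widest footprint of Hist1h4c had been seen to cover it. From 200 bp before to 50 bp after the 5′ end, on both strands, it was present in 12 of 13 H4 genes, always on the strand of the gene, and in 8.60% of all protein-coding genes. Among the other families 3 of 54 had it, of which 2 were H3 genes and 1 an H2B gene. It began 11 to 80 bp before the annotated 5′ end, and Hist1h4a was the H4 gene without it.

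The hexamer is shown in its surroundings for 6 H4 genes. Hist1h4c, Hist1h4i, Hist4h4, Hist1h4d and Hist2h4 had means of 4.64 to 6.40, and Hist1h4m had 0.723. No gene of the range between is shown. All are from mm10, read along the gene, with GGTCCG in capitals. Hist1h4c is chr13:23698481-23698528 (− strand), Hist1h4i chr13:22041385-22041432 (− strand) and Hist4h4 chr6:136804440-136804487 (− strand). Hist1h4d is chr13:23581497-23581544 (+ strand), Hist2h4 chr3:96263356-96263403 (− strand) and Hist1h4m chr13:21811675-21811722 (+ strand).
Hist1h4c: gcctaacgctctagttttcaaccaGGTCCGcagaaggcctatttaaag
Hist1h4i: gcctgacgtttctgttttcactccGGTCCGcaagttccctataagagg
Hist4h4: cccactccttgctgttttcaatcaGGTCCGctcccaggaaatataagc
Hist1h4d: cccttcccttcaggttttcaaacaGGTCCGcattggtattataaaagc
Hist2h4: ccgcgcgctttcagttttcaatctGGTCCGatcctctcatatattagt
Hist1h4m: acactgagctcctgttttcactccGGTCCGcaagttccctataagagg
Each of the 6 has ttttca shortly before the hexamer and an AT-rich stretch behind it. Of the 12 genes only 7 have ttttca there. Hist1h4h, Hist1h4k, Hist1h4f, Hist1h4b and Hist1h4j, the hexamer genes between in signal, lack it and are not shown. Hist1h4i and the low-signal Hist1h4m have the same letters from the ttttca onwards in these lines.

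A footprint overlapped the hexamer by at least 1 bp at 10 of the 12 genes in replicate 1, at 9 in replicate 2 and at 8 in both (66.7%). Over all 1671 GGTCCG matches at promoters with a shared peak, 18.3% were overlapped in both libraries. The whole hexamer was covered in both libraries at 3 of the 12, Hist1h4c, Hist1h4i and Hist4h4, beside 6.64% of all matches; at the other 5 of the 8 the cover was partial in at least 1 library. Hist1h4c is among these and prompted the search, so its own value is no support. At Hist1h4c the footprint ran from 69 to 23 bp before the 5′ end in replicate 1 (47 bp) and from 68 to 24 bp in replicate 2 (45 bp). At Hist1h4i it measured 48 and 45 bp, and at Hist4h4 32 and 35 bp. The median footprint in the histone windows was 9 bp in replicate 1 and 10 bp in replicate 2, so these were long. Overlapping footprints of at least 25 bp in both libraries, from 100 bp before to 50 bp after the 5′ end, occurred at 6 of 13 H4 genes (46.2%) and at 9.85% of all protein-coding genes. At 3 of these 6, Hist1h4a, Hist1h4b and Hist1h4j, the overlap of the wide footprints did not hold the hexamer. They occurred at 4 of the other 54 histone genes, 2 of them H2A and 2 H3; the width was set after seeing Hist1h4c.

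**Figure D2:**
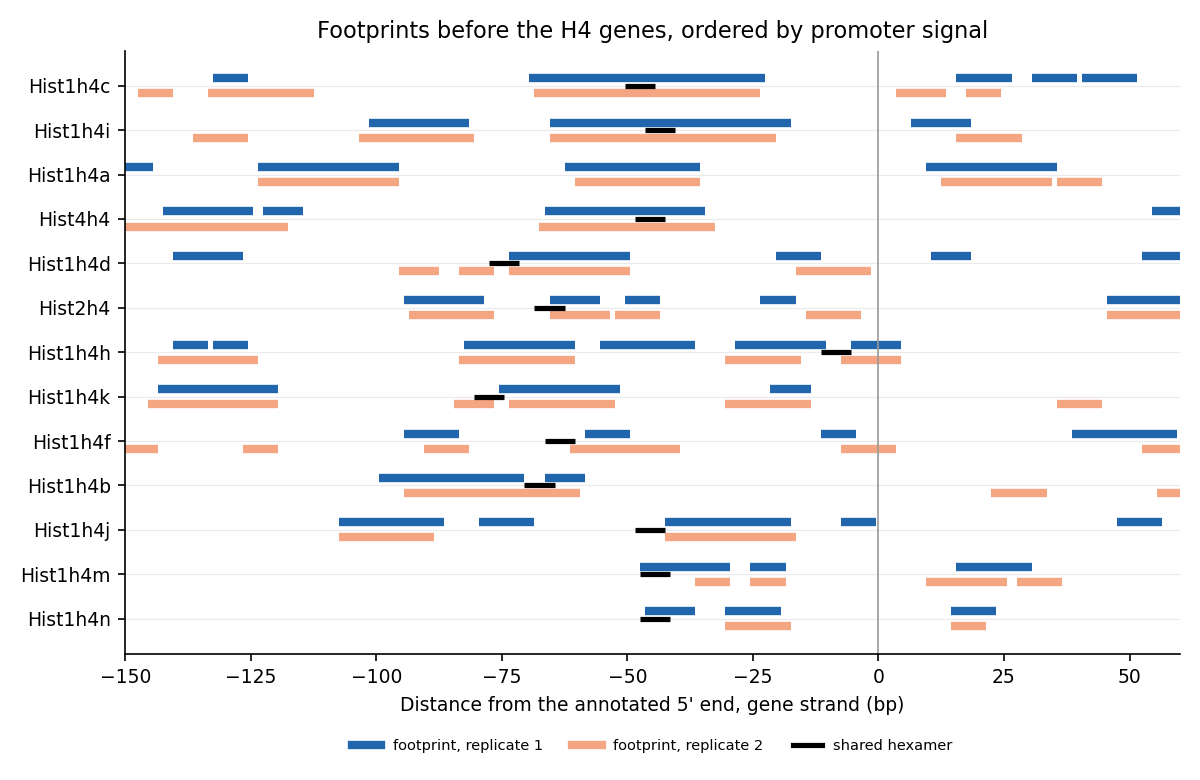
Footprints around the 5′ end of the 13 H4 genes (horizontal axis, bp from the annotated 5′ end; genes ordered from the highest mean signal at the top), blue for replicate 1 and orange for replicate 2, with the shared hexamer as a black bar. The long footprints of Hist1h4c and Hist1h4i cover the hexamer in both libraries, as do those of Hist4h4; at Hist1h4f, Hist1h4j, Hist1h4m and Hist1h4n it lies outside all footprints in at least 1 library.

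The whole promoter of Hist1h4c is shown as that of the highest gene (mm10 chr13:23698455-23698654, − strand, read along the gene), with CCAAT in capitals.
Hist1h4c: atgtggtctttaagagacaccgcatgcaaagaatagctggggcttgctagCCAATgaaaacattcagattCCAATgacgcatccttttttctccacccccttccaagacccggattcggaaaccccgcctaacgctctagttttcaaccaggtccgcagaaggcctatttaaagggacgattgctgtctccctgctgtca
Its wide footprint covered bases 132 to 178 in replicate 1 and 133 to 177 in replicate 2, from the stretch before ttttca through the AT-rich stretch. The second CCAAT was overlapped in both libraries, at bases 69 to 75 and 68 to 88, and the first in replicate 2 only, at bases 54 to 60.

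The 9 genes without a promoter peak fell into distinct kinds. Hist1h1t, Hist1h2aa and Hist1h2ba are the testis genes of the locus, the last 2 forming a divergent pair that encodes the germline H2A and H2B. At least 83.5% of the 36-base words in their windows occur once in the genome, so reads could be placed there, and no base of the 3 windows was listed in the cut-rate table of either library. Hist1h1d was closed at its annotated 5′ end only, as above. The others, Hist1h2ao, Hist1h2ap, Hist1h2bq, Hist1h2br and Hist2h3c1, have near-identical copies: 0% of the words are unique in the first 4 and 3.73% in Hist2h3c1. Most or all 36-base words of these windows fit more than 1 place, so the missing peaks of these 5 do not show closed promoters. Hist2h3c2, with the same 3.73%, did have a weak peak in both libraries, as had Hist1h4m and Hist1h4n, and these values are uncertain too. How reads that fit several places were treated is not known here, and its part in the missing peaks was not tested.

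The share of open genes and their signal were also set beside how unique their sequence is. Among windows with under 10% unique words 3 of 8 histone genes had a shared peak, beside 2.60% of 500 genes over the genome. From 10% to under 80%, all 40 histone genes did, in a range where 14.7% to 22.0% of all genes did. From 80% upward it was 15 of 19 histone genes, and 65.1% of all genes. The median signal of these 15 was 2.89, beside 3.03 for all genes of that range, while that of the 43 open histone genes under 80% was 1.85. Of the 15, 5 were H4 genes, with a median of 4.82; the other 10 had a median of 2.08. By family, from 80% upward the open H1 genes had 2.40 (4 genes), H2A 2.22 (2 genes), H2B 2.06 (3 genes) and H3 1.31 (1 gene). Under 80%, H4 had 3.08 (8 genes), H3 2.12 (10 genes), H2A 1.85 (13 genes) and H2B 1.81 (12 genes). H4 was thus above H2A and H2B on both sides of 80%, and the single H3 gene above 80% was below the median of the H3 genes under it. The read length is not given in the sources used here, and the part of repeated sequence in the signal was not tested.

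**Figure D3:**
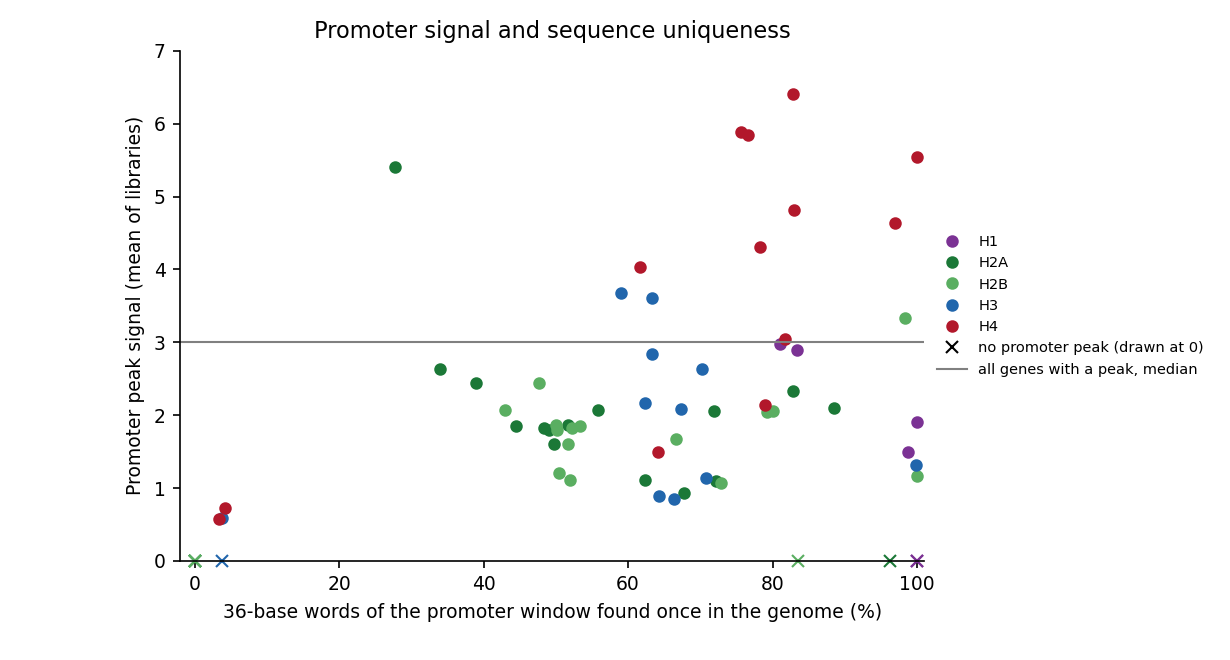
Mean promoter signal of both libraries (vertical axis) against the percent of 36-base words in the 1001 bp window that occur once in the genome (horizontal axis), 1 point per histone gene, coloured by family, with genes without a peak as crosses at 0. The 8 windows under 10% carry 3 weak peaks and 5 crosses, and the 3 crosses at 80% and above that stand for testis genes are joined by Hist1h1d.

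Inside the gene, fewer bases were listed by their cut rate in H2A and H3 genes than in H4 and H1 genes. The cut-rate tables list bases whose local cut rate passed a false discovery rate (FDR) of 0.05. The median histone window had 690.5 of its 1001 bases listed (694 in replicate 1 and 633 in replicate 2), and the median window of all protein-coding genes 571. Among genes with a shared peak the order turned: 705 bases in the histone genes and 817.5 in all. In 20 bp bins the histone genes reached 85.1% of bases listed at 40 to 20 bp before the 5′ end, whereas all genes reached 57.0% at 40 to 60 bp after it. H4 reached 100%. At 260 to 280 bp inside the gene the listed share was 32.9% in H2A, 52.8% in H2B and 29.6% in H3, but 77.3% in H4 and 66.7% in H1, and 53.3% in all genes. The share of unique words in the 67 windows fell over the same stretch, from 89.6% just before the start to 30.8% at 140 to 160 bp. The coding sequences are the part most alike between copies. At 260 to 280 bp unique words made up 22.5% in H2A, 23.6% in H2B, 8.33% in H3, 23.8% in H4 and 68.3% in H1. The part of repeated sequence in the listed shares was not tested.

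**Figure D4:**
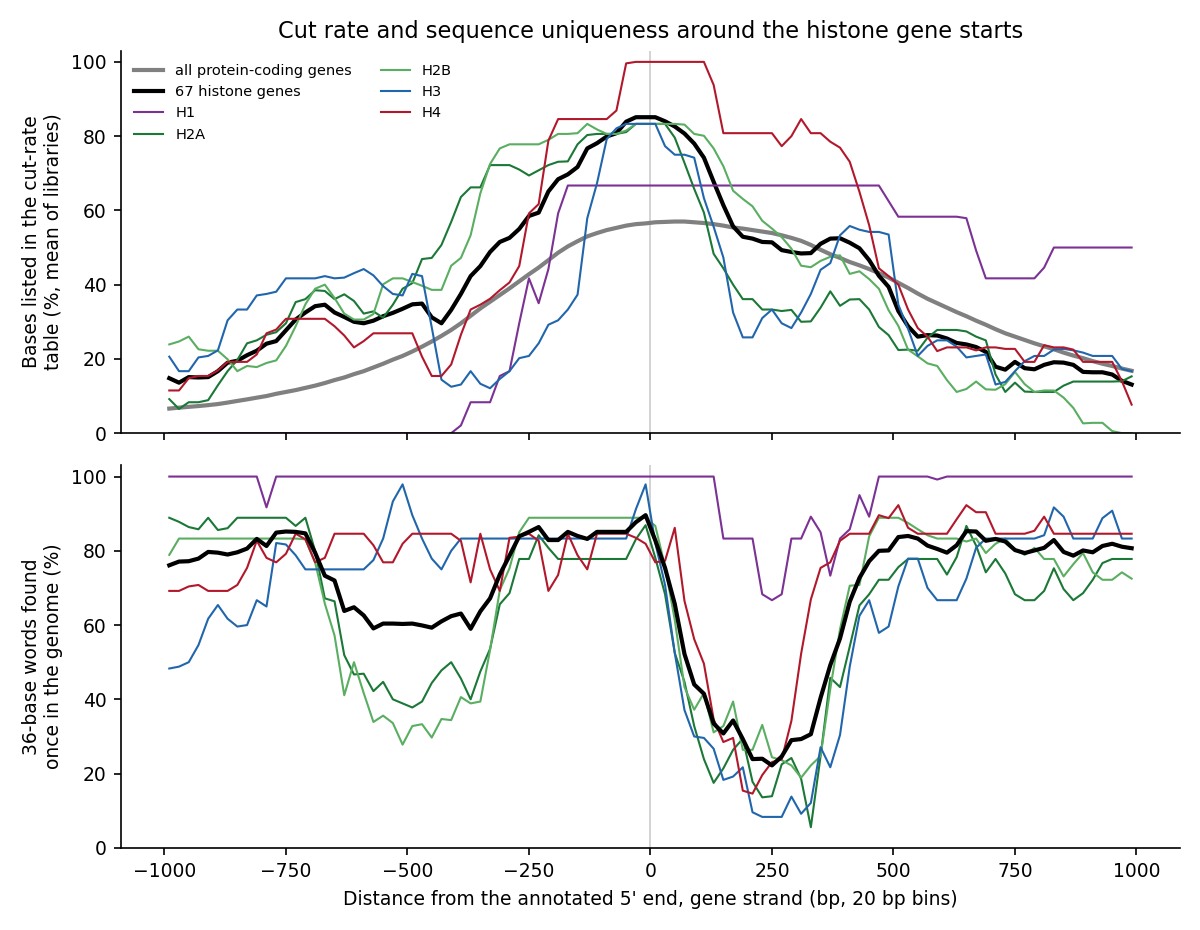
Upper panel, percent of bases listed in the cut-rate table (mean of both libraries) in 20 bp bins from 1000 bp before to 1000 bp after the annotated 5′ end, for all protein-coding genes (grey), the 67 histone genes (black) and each family; lower panel, percent of 36-base words found once in the genome for the histone genes. H4 reaches 100% at the start, and the black line drops from 85.1% inside the genes. At 260 to 280 bp it is slightly below the grey line (49.3% and 53.3%), where 24.6% of words are unique. At 380 to 400 bp it is above (52.5% and 47.2%). From 500 to 520 bp it is below again (32.9% and 40.5%), where 83.7% of words are unique.

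The families carried different promoter elements. Known ones were searched on both strands from 200 bp before to 50 bp after the 5′ end, and a match is a description of letters. CCAAT was in 56 of 67 histone promoters (83.6%) and in 34.4% of all promoters: in all 18 H2A and all 18 H2B genes, 11 of 12 H3 genes, 5 of 6 H1 genes and 4 of 13 H4 genes. The octamer ATTTGCAT, known to be bound by Oct-1, was in 14 (20.9%) and in 1.36% of all promoters, in 8 H2B and 6 H2A genes and no other family. Such counts share letters, since both genes of a divergent pair search the same stretch: the 14 genes hold 10 distinct matches. AAACACA was in 4 of 6 H1 genes, in 13.4% of histone promoters and in 5.04% of all. GGGCGG, the GC box bound by Sp1-type factors, was in 40.3% and 42.4%, but in 10 of 13 H4 genes. TATAAA, searched on the gene's strand from 50 to 15 bp before the 5′ end, was in 10 (14.9%) and in 2.94% of all.

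Footprints lay on some of these matches. At least 1 footprint in each library was present in 57 of 67 histone windows (85.1%), beside 58.5% of all protein-coding genes. These shares lay near those with a shared promoter peak, 86.6% and 60.1%. The histone windows held 351 footprints in replicate 1 and 265 in replicate 2. Of these, 48.1% and 61.1% overlapped a footprint of the other library. At promoters with a shared peak, 28 of 96 CCAAT matches (29.2%) were overlapped by a footprint of either library, beside 34.5% of 6101 matches over all promoters, a share near the background. GC boxes were overlapped at 18 of 37 matches (48.6%), beside 63.6%, with H4 at 11 of 15. TATAAA was overlapped at 9 of 10 matches, beside 43.3% of 127. In both libraries it was overlapped at 4 of the 10, beside 40 of the 127, a share near the background. By family, CCAAT was overlapped at 17 of 44 matches in H2A and 11 of 46 in H2B.

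Per length, the clusters held more open sites than chromosomes 1 to 19 as a whole. Members no more than 100 kb apart were joined into 7 spans of 425.8 kb in all, each running from the first to the last base of its genes. They held 110 peaks when overlapping peaks of both libraries were merged, of which 85 were in both libraries, 14 in replicate 1 only and 11 in replicate 2 only. This was 199.6 shared peaks per Mb, and chromosomes 1 to 19 as a whole had 31.9. The spans hold 67 histone genes in 425.8 kb, and chromosomes 1 to 19 hold 20807 protein-coding genes in 2462745.4 kb. A higher density of peaks is thus in part given by drawing the spans from gene to gene. Of the 85, 65 lay at promoters of histone genes, 10 in histone gene bodies, 9 between genes and 1 at the promoter of Hfe, a gene of iron balance that lies inside the cluster. Peaks found in 1 library were at histone promoters in 15 of 25 cases.

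The largest span, chr13:23531050-23764406, held 29 genes and 43 shared peaks in 233.4 kb. The span chr13:21715763-21837530 held 18 genes and 19 shared peaks in 121.8 kb, and chr13:22035164-22043676 held 5 genes and 3 in 8.51 kb. On chromosome 3, chr3:96219865-96270132 held 10 genes and 13 shared peaks in 50.3 kb, and chr11:58948920-58956830 held 2 genes and 6 in 7.91 kb. The single gene of chromosome 6 had 1 shared peak in 2.86 kb. The testis pair, chr13:23933773-23934851, had none in 1.08 kb. The spans without the testis pair thus all held open sites. The median signal of all 85 shared peaks of the spans was 1.49, and that of the 65 at histone promoters 1.70. For all 78595 shared peaks of chromosomes 1 to 19, at promoters and elsewhere, it was 0.801. Beside promoters alone the histone genes were lower, at 2.05 and 3.0 for all open genes, as above.

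The open sites outside the promoter windows had lower medians. The 9 shared peaks between genes had a median of 0.897 and the 10 in gene bodies 1.24. Of the 10, 3 lay within 500 bp of a histone start codon, among them that of Hist1h1d; the 16 other sites of both kinds had a median of 0.928. The strongest, in the annotated body of Hist1h1c (chr13:23739621-23740120), had 2.44 in replicate 1 and 2.96 in replicate 2, about as high as its promoter at 3.06 and 2.72. It begins shortly after the stem-loop of Hist1h1c at chr13:23739512-23739527. A peak beyond the end of Hist1h4h (chr13:23531661-23531860) had 1.91 and 2.48. The body of Hist1h2be, whose annotated 5′ end lies 35168 bp before its start codon, held 4 of the 10; its promoter signal was 1.30 and 1.05 at the 5′ end and 1.08 and 1.12 at the start codon.

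**Figure D5:**
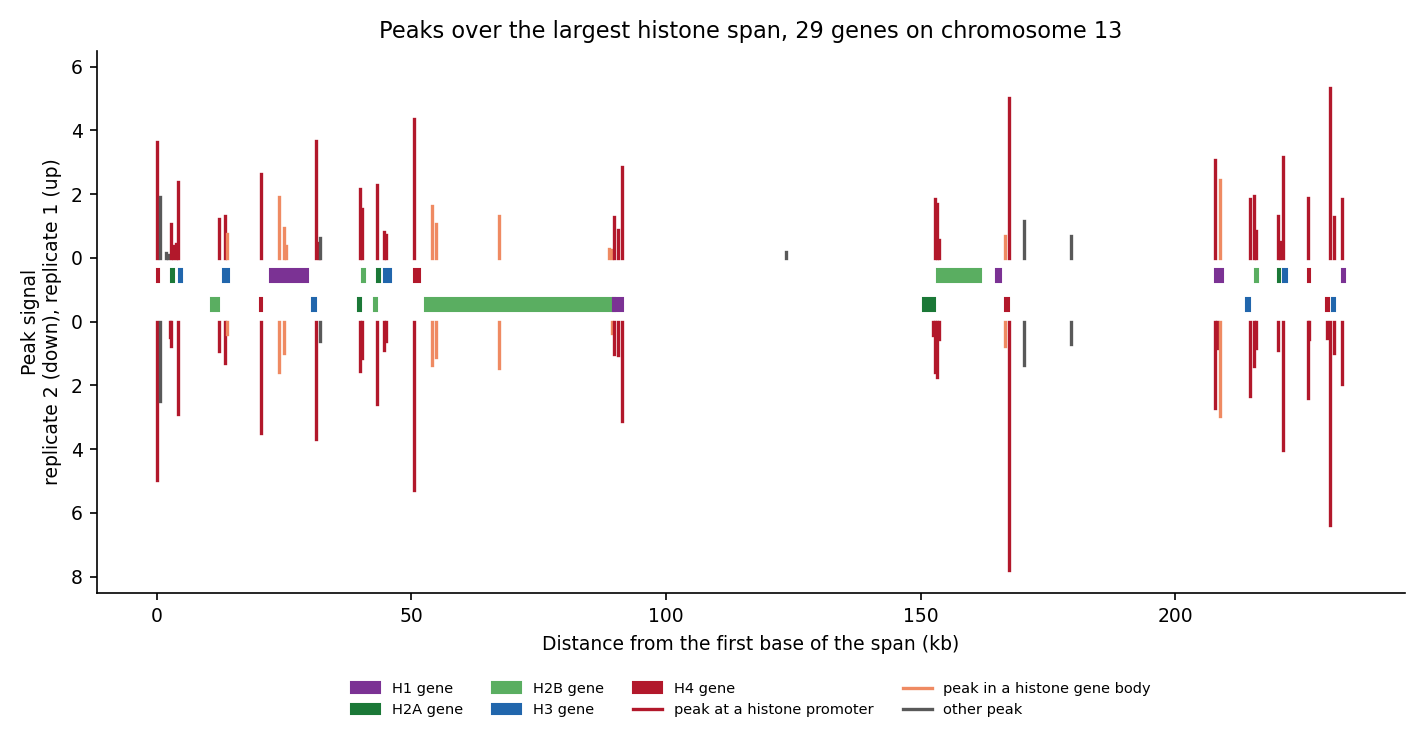
Peaks over the largest span (horizontal axis, kb from its first base), with the signal of replicate 1 drawn upward and of replicate 2 downward, peaks at histone promoters in red, in histone gene bodies in orange and others in grey, and genes as boxes by family above (+ strand) and below (− strand) the middle. The tallest peaks stand at H4 genes in both libraries, and the stretch without histone genes in the middle holds few peaks.

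What lies between the spans of chromosome 13 differed from the spans. The 1487.4 kb between the spans of 5 and 29 genes held 66 shared peaks, or 44.4 per Mb, and 40 protein-coding genes, 36 of them vomeronasal receptor genes (Vmn1r) that are used in pheromone sensing. None of these 36 had a shared promoter peak. The 197.6 kb between the spans of 18 and 5 genes held 136.6 per Mb. From the first to the last Hist1 gene there are also 77 tRNA genes in RefSeq, all outside the spans, of which 63 (81.8%) had a shared peak within 200 bp, beside 244 of 386 (63.2%) on chromosomes 1 to 19. Of the pseudogenes of the family, Hist1h2al, elsewhere on chromosome 13 and away from any member, had a peak of 1.18 and 0.951. The strongest peaks assigned to Hist1h2aj and Hist3h2bb-ps were those of the neighbouring genes Hist1h2bm and Hist3h2a, so these are not given. Hist3h2bb-ps was also overlapped by a weaker peak outside the Hist3h2a promoter window (chr11:58953661-58954100), with 0.93 and 0.802.

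Most of the genes held the stem-loop that SLBP binds in place of a poly(A) tail. A pattern search for it found at least 1 in 65 of 67 genes, anywhere in the gene or up to 100 bp beyond. Near the annotated end, from 200 bp inside to 100 bp beyond, it was in 42 (62.7%), and other genes were not searched. Counted with the flanking bases in small letters, the form found most often was in 7 genes. It is shown with the 16 bases of the stem and loop in capitals, and these 16 alone were in more genes.
Stem-loop: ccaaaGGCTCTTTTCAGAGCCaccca
The capitals are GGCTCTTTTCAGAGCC, whose ends pair with each other in the RNA. No match to the pattern was found in Hist2h2be and Hist1h2an.

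Genes that serve the histone clusters were open in the same tissue. Of 29 genes of transcription and processing of histone mRNA and of histone deposition, 25 had a peak of both libraries at the promoter, and the median of these was 4.47. Of all protein-coding genes 60.1% had such a peak, with a median of 3.0. Npat, the organiser of the histone locus body, had 6.17 in replicate 1 and 7.62 in replicate 2, and Casp8ap2, another protein of that body, 4.66 and 5.31. Slbp, which encodes the stem-loop binding protein, had 4.69 and 4.71, and Lsm11, part of the U7 particle that cuts histone mRNA, 5.75 and 7.99. Hinfp had 3.94 and 5.37, and Nfya, a subunit of NF-Y, 6.43 and 7.98. All 6 were above the median of the histone genes and that of all open promoters in both libraries, but they were chosen from the 29 after their values were seen. Cdk2, Ccne2, Nasp and Cpsf2 were open with means of 2.34 to 2.97, below the 3.0 of all open promoters. Those without a shared peak at the 5′ end were Zfp473, Nfyc, Cpsf3 and Eri1, the last 2 of which had one at a start codon.

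Replication-independent histone genes had a higher median signal than the replication-dependent ones. Of 13, 9 had a promoter peak in both libraries, with a median of 4.79, beside 60.1% and 3.0 for all protein-coding genes. H2afz, which encodes H2A.Z, had 4.81 and 6.31, H2afv 6.10 and 7.81, and H1f0, the linker histone of resting cells, 3.92 and 5.66. Cenpa, the centromere H3, had 1.65 and 1.89, H2afy2 1.97 and 1.99, and H1fx 2.03 and 1.99, and these 3 had means below the 2.05 of the replication-dependent genes. H3f3a, one of the H3.3 genes, had 4.28 and 4.64, and H3f3b was open at its start codon but not at the outermost 5′ end. H1foo and Hils1, of oocyte and sperm, had none, and neither did H2afy. Of the replication-dependent families, H4 with its median of 4.31 was the nearest to 4.79.

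Genes of S phase and mitosis were open too. Each of the 21 had a peak in both libraries, beside 60.1% of all protein-coding genes. Their median was 3.22, near the 3.0 of all open promoters. Mcm5, a subunit of the replicative helicase, had 6.03 and 8.15, Top2a 4.31 and 5.86, and Pcna 3.95 and 4.94. Mki67, the proliferation marker, had 1.26 and 1.45. Open promoters were thus measured at cell cycle genes in this tissue; the share of dividing cells was not measured.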

How the data were processed

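DNase-seq calls of 2 libraries of left cerebral cortex were used. The authors aligned to mm10, per the labels; no source used here gives the aligner, the callers or the read length. The deposited peak signal is a cut density scaled by the authors to read depth; peaks were called on each library alone, as a larger and a smaller list. The deposited footprint tables give an FDR, 0.01 throughout, and the deposited cut-rate tables give adjusted p-values (q-values) below 0.05 for stretches of bases.

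The members and lists were chosen with earlier results of these data known. Promoters were the outermost GENCODE M21 5′ end with 500 bp on either side; overlap by 1 bp counted. The strongest peak of a window gave its signal, and values are given by library or as the mean of both. Merged peaks were counted once by their centre. Sequence came from the RefSeq copy of GRCm38.p6, the build of the files; RefSeq starts were matched to 62 members through Entrez gene numbers. Unique words are 36-base words found once on either strand. Python 3.11.15, numpy 2.4.6, pandas 2.3.3, numba 0.67.0 and matplotlib 3.10.9 were used, and the counting steps were tested on simulated data. Named genes were all Hist2h, Hist3h and Hist4h members, all H1 genes, the testis genes, the 8 highest and 5 lowest other Hist1h genes, genes without a peak and the 5 highest pairs; others were chosen after their values were seen. Alternatives covered the window, peak list, start, overlap, unique words, span gap and each library. The libraries were taken as separate animals on their female and replicate numbers. Alleles were not analysed; reads of the CAST/EiJ copy may align less often, which was not tested.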

Additional observations from a re-analysis of the deposited data

How the results depend on the processing

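The share of histone genes with a shared promoter peak stayed between 78.9% and 88.1% in 11 alternatives, each time above that of all genes, and shared peaks per Mb of the spans between 145.1 and 231.7, or 234.9 to 239.6 with each library alone, each time above chromosomes 1 to 19. The share with a footprint in both libraries was 79.1% to 85.1%. The median promoter signal was 1.97 with the nearest peak, 2.89 among windows with at least 80% unique words (2.08 without H4), and 1.96 to 2.00 with each library alone; it was below that of all genes in all 9 settings. Listed bases had a median of 743.5 in windows of 1000 bp on either side, 549 below an FDR of 0.001, and 633 to 694 with each library alone. The share of CCAAT matches overlapped by a footprint was 16.7%, beside 16.6% of all, when the footprint had to cover the whole match. No paired analysis was possible because there is 1 group only. The annotated starts limit these values: 11 histone genes are annotated from their start codon. The start codon, RefSeq start, extended span, wide footprint and GGTCCG measures, and the subsets by CpG, unique words and without H4, were chosen after seeing the data. At RefSeq starts 54 of 62 histone genes (87.1%) had a shared peak, beside 64.8% of all, and CCAAT was in 85.5%. With 1 library per animal and 2 animals, the spread between them is known only roughly.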
